A study of Homo sapiens with 30 samples.

Results

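The genes described here build the vesicles that carry proteins between the endoplasmic reticulum and the Golgi apparatus. They were taken by name: 46 human genes were looked up in the LNCaP count table by Ensembl identifier without its version, and all 46 were found among its 37843 genes. By role, 13 make or assemble the COPII coat, 12 make the COPI coat or the ARF machinery that recruits it, 12 are cargo receptors, and 9 are tethers, SNAREs or RAB1 GTPases. Of the 46, 45 had enough counts to be tested. The exception was COPZ2, the rarer form of a COPI subunit, which lay between 0 and 0.155 CPM (the read count of a gene scaled to a common library size) in all 15 libraries.

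LNCaP is an established prostate cancer line, grown from a lymph node metastasis, that responds to androgen. The cells were plated at 130000 per well in RPMI medium with 8% serum stripped of steroids by charcoal, left for 48 h, and then kept for 24 h with vehicle or with R1881, a synthetic androgen, at 0.03, 0.06, 0.1 or 10 nM. The series sets weak against strong androgen exposure. There were 3 libraries in every one of the 5 groups, with replicate numbers 2, 3 and 4, and all groups shared the line, the medium and the exposure time. The labels do not say whether the libraries of a group came from separate cultures, so the p-values measure only the spread between these libraries, which may be technical. The series also holds VCaP samples, which were not analysed here.

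COPII vesicles bud from the endoplasmic reticulum and carry newly made proteins forward, and COPI vesicles carry escaped residents back and move material within the Golgi. A small GTPase starts each coat (SAR1 for COPII, ARF1 for COPI), coat subunits select cargo directly or through receptors that span the membrane, and tethers and SNAREs dock and fuse the vesicle at its target. Luminal prostate cells are secretory cells that export prostate-specific antigen and other proteins through this route.

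Levels are in CPM, with library sizes scaled by TMM factors, and a difference is a log2 ratio of 2 groups with its standard error (SE). A gene was called when its Benjamini-Hochberg adjusted p from edgeR's quasi-likelihood test, over 18403 genes tested, was under 0.05. Library totals ran from 30666460 to 61199483 counts. The 5 libraries numbered 3, 1 in each group, held 9.31% to 10.7% mitochondrial counts against 6.14% to 7.69% in the other 10, so each count below was also taken without them. The androgen-induced KLK3, which encodes prostate-specific antigen, stood at 93.7, 107 and 107 CPM in vehicle and rose by 2.92, 3.87, 4.35 and 5.23 on the log2 scale over the 4 doses. FKBP5, a steroid receptor co-chaperone and a further androgen target, rose by 0.71, 1.86, 3.05 and 5.40, so both genes followed the labelled doses. Luminal epithelial markers were present, CDH1 at 701 to 791 CPM and KRT8 at 450.5 to 3212 CPM among them. Of 3 basal markers, KRT5 was not in the table and TP63 and KRT14 stayed under 1 CPM. The sum of 6 fibroblast markers, mostly COL1A1 reads, ran from 29.3 to 40.4 CPM in vehicle and from 16.5 to 20.3 CPM at 10 nM, with DCN at or near 0 and COL1A2 not in the table. The sum of 7 leukocyte and endothelial markers, nearly all VWF reads, ran from 16.7 to 20.2 CPM and from 5.24 to 8.04 CPM in the same groups, with PTPRC, PECAM1 and CDH5 at or near 0. The part of these marker sums in the results was not tested. In bulk RNA, less RNA per cell and fewer cells holding it cannot be told apart.

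At 10 nM R1881 almost the whole vesicle transport set stood above vehicle. Of the 45 genes tested, 44 rose and none fell, where 29.3% of all genes tested rose and 28.3% fell. The median difference was 0.74 on the log2 scale, a fold of 1.67, beside a median of -0.01 over all genes tested. A rise of at least 2-fold was found in 10 of the 45, against 6.15% of all genes. In all 44 the 3 libraries at 10 nM lay above the 3 vehicle libraries, a separation that 31.5% of all genes showed upward. The gene that did not rise was SEC23A, a COPII subunit, at 138, 128 and 136 CPM in vehicle and 138, 142 and 149 CPM at 10 nM (log2 0.09, edgeR adjusted p = 0.219). Summed over the set, the level went from 6418 ± 20.9 CPM in vehicle to 10890 ± 372 CPM at 10 nM (SD, n = 3). As a share of all counts in a library, without any scaling between libraries, the set took 0.669% ± 0.012 in vehicle and 0.983% ± 0.048 at 10 nM.

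**Figure D1:**
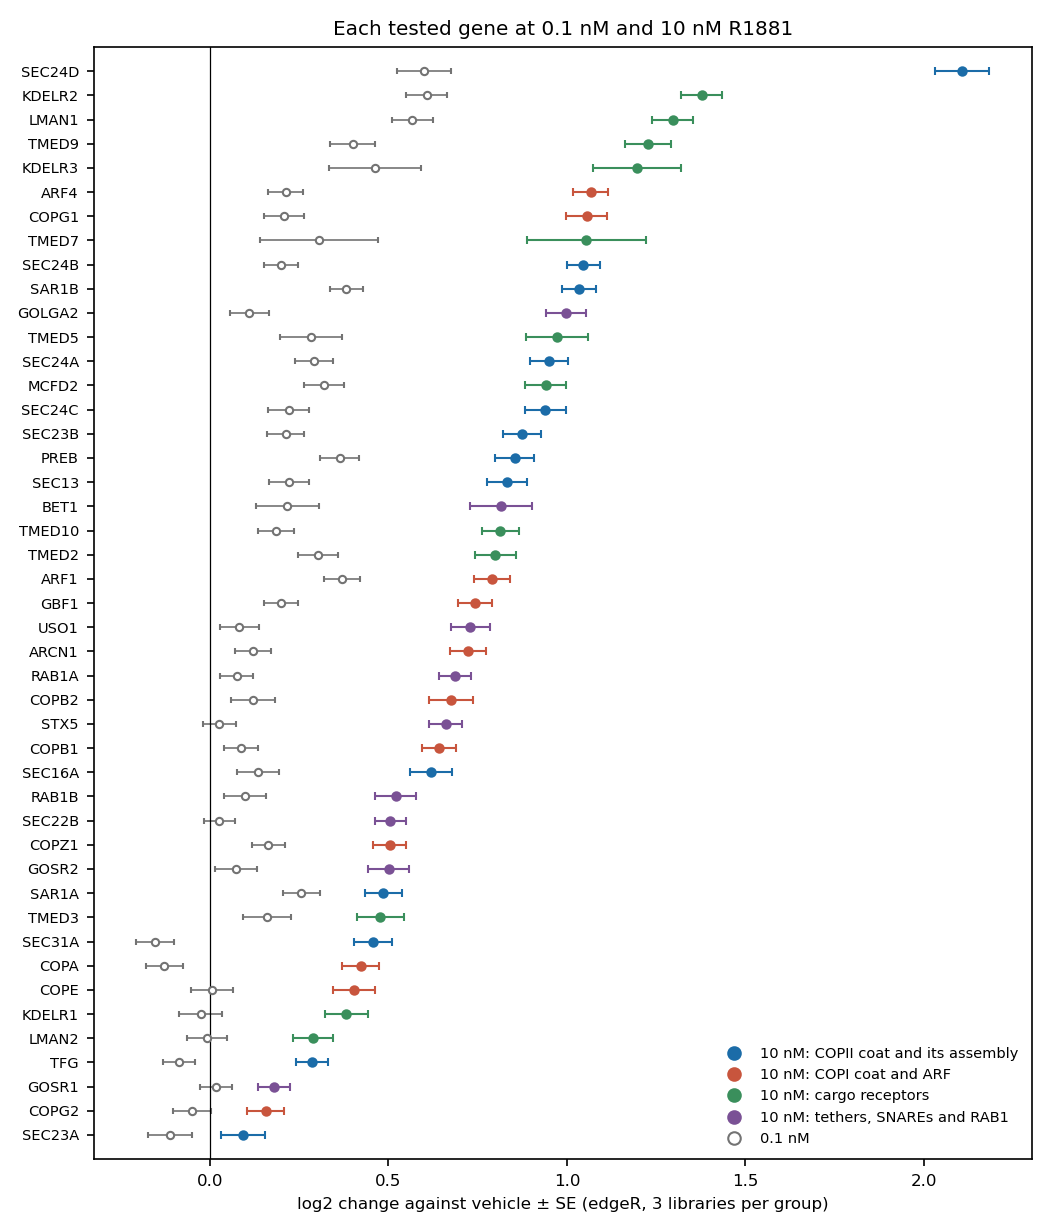
Log2 difference from vehicle (horizontal axis, ± SE, edgeR, 3 libraries per group) for each of the 45 genes tested, ordered by its value at 10 nM R1881; filled points coloured by role are 10 nM and open grey points are 0.1 nM. SEC24D stands apart at the top with 2.11, SEC23A is at the bottom with 0.09, and the 0.1 nM points lie between -0.15 and 0.61.

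How libraries were scaled bears on the size of these rises and on the calls of the smallest. The scaling factors that equalise the bulk of genes (TMM) fell from 1.03 to 1.06 in vehicle to 0.883 to 0.912 at 10 nM. With plain library totals in their place, the median of all genes moved from -0.01 to -0.22 and that of the transport genes from 0.74 to 0.53, and the calls over all genes went from 5399 up and 5209 down to 3069 up and 7987 down. Under that scaling 40 of the 45 transport genes were still called higher and none lower, while TFG, COPG2, LMAN2 and GOSR1 lost their call. COPG2 and GOSR1 then changed sign, to -0.05 and -0.03. Of the genes that rose at least 2-fold, SEC24D, KDELR2, LMAN1 and TMED9 stayed above 2-fold in all 14 alternative fits. The others fell under 2-fold in some fit, with lowest log2 values of 0.99 (KDELR3), 0.86 (ARF4), 0.85 (COPG1), 0.84 (TMED7), 0.84 (SEC24B) and 0.82 (SAR1B).

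Within the COPII coat, 12 of 13 genes rose at 10 nM and none fell, with a median of 0.85. SEC24D, one of 4 SEC24 forms that bind the export signals of cargo, had the largest difference of the whole set (ENSG00000150961.15, chromosome 4, 118722823 to 118838683, minus strand, GRCh38). Its vehicle libraries gave 34.4, 34.5 and 33.5 CPM and its 10 nM libraries 152.6, 131 and 159 CPM, here and below in the order of replicates 2, 3 and 4. Every 10 nM library thus held over 3 times the highest vehicle value. The rise was 4.31-fold (log2 2.11 ± 0.076, edgeR adjusted p = 1.05e-13). The 8 genes given with an Ensembl identifier were picked among called genes whose groups did not overlap, so their separation is no result. The other SEC24 forms rose by less: SEC24B by 1.05 ± 0.046, SEC24A by 0.95 ± 0.054 and SEC24C by 0.94 ± 0.058 on the log2 scale. SEC24C shares 42.9% of its exon length with a gene on the opposite strand, and the strand setting of the counting is not given in the sources used here. Per kilobase of exon, SEC24C remained the most abundant of the 4 forms, with 61.4% ± 1.1 of their summed level in vehicle and 56.7% ± 0.49 at 10 nM. SEC24D was the least abundant, and its share went from 5.44% ± 0.18 to 11.3% ± 0.69 (SD, n = 3).

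SEC23, the partner of SEC24 in the inner coat and the activator of SAR1, comes in 2 forms that moved apart. SEC23B (chromosome 20, 18507482 to 18561415, plus strand) went from 188, 188 and 184 CPM to 336, 334 and 358 CPM, a rise of 0.87 ± 0.052. SEC23A, whose values are given above, made up 26.03% ± 0.85 of the pair per kilobase in vehicle and 16.98% ± 0.28 at 10 nM, and the ranges of this share did not overlap. The SAR1 GTPases showed the same kind of shift. SAR1B gave 133, 128 and 138 CPM in vehicle and 264, 274 and 279.6 CPM at 10 nM, a rise of 1.03 ± 0.048, while SAR1A rose by 0.49 ± 0.052. SAR1B thereby went from 42.2% ± 0.55 to 51.6% ± 0.89 of the pair per kilobase. By CPM alone it was already the larger form in vehicle, with 53.6% ± 0.56, and held 62.8% ± 0.83 at 10 nM. PREB, the exchange factor that loads SAR1 with GTP, rose by 0.85 ± 0.055.

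The outer cage of the COPII coat is built of SEC13 and SEC31A. SEC13 rose by 0.83 ± 0.056 and SEC31A by 0.46 ± 0.053. SEC16A and TFG, which organise the exit sites where the coat assembles, rose by 0.62 ± 0.059 and 0.29 ± 0.045. SAR1B and SEC24A lie next to each other on chromosome 5, in opposite directions, and share 385 exon bases at their starts, so without strand a few reads of each could be counted for the other.

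**Figure D2:**
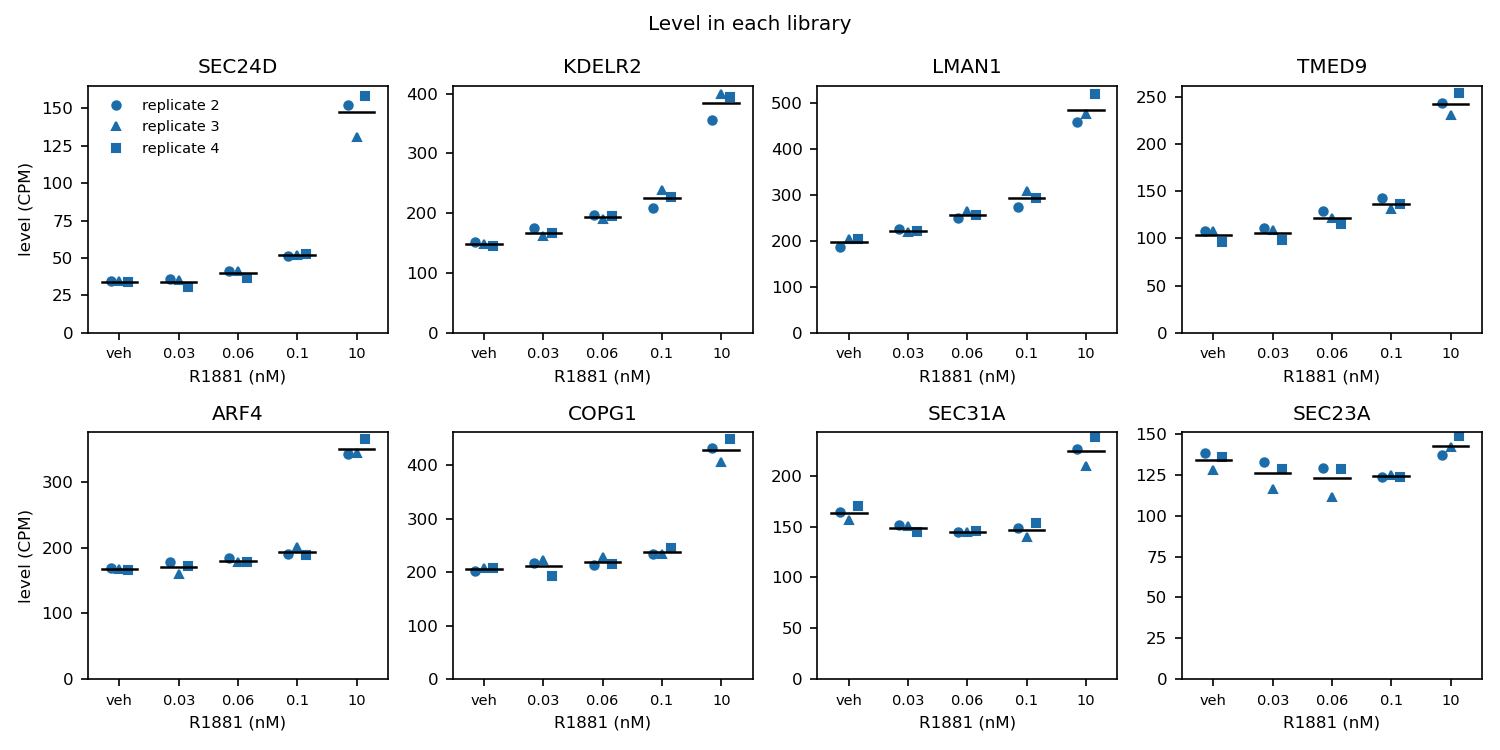
CPM in each library (points, 3 per group) for 8 genes against R1881 dose in nM, with the group mean as a bar, on linear axes that start at 0. SEC24D climbs from 33.5 to 34.5 CPM in vehicle to 131 to 159 CPM at 10 nM, SEC31A dips at the low doses before it rises, and the SEC23A groups overlap.

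All 11 tested genes of the COPI coat and its ARF machinery rose at 10 nM, with a median of 0.68. The largest difference was that of ARF4, a GTPase of the ARF family that acts at the Golgi beside ARF1 (ENSG00000168374.11, chromosome 3, 57571363 to 57598220, minus strand). It went from 169, 168 and 166 CPM to 342, 345 and 365 CPM, so the lowest 10 nM library was over 2 times the highest vehicle library. The rise was 1.07 ± 0.049 (edgeR adjusted p = 2.84e-12), and 11.6% of its exon length lies under an antisense gene. ARF1, the GTPase that recruits coatomer, was the more abundant and rose by 0.79 ± 0.051. GBF1, the exchange factor that loads ARF1 with GTP at the early Golgi, rose by 0.74 ± 0.047.

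Coatomer, the complex that forms the COPI coat, has 7 kinds of subunit. COPG1, the main gamma form (ENSG00000181789.14, chromosome 3, 129249606 to 129277773, plus strand), gave 203, 208 and 208.5 CPM in vehicle and 432, 406 and 449 CPM at 10 nM. The rise was 1.06 ± 0.057 (edgeR adjusted p = 2.52e-11). COPG2, the other gamma form, gave 68.6, 65.5 and 68.5 CPM against 76.7, 74.2 and 74.9 CPM, a rise of 0.16 ± 0.052 that was called (edgeR adjusted p = 0.0167) but lost its call in 6 of 14 alternative fits. Those 6 include the fits without 10 nM replicate 2, without 10 nM replicate 4 and without vehicle replicate 3, and with library totals its sign turned to -0.05. The share of COPG1 in the pair, per kilobase, went from 74.1% ± 0.66 to 84.2% ± 0.62.

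The remaining coatomer subunits rose by intermediate amounts. ARCN1 (delta) rose by 0.72 ± 0.050, COPB2 (beta prime) by 0.68 ± 0.061, COPB1 (beta) by 0.64 ± 0.048, COPZ1 (zeta) by 0.50 ± 0.047, COPA (alpha) by 0.42 ± 0.051 and COPE (epsilon) by 0.40 ± 0.059. Over all 8 coatomer genes tested, the fold ran from 1.11 for COPG2 and 1.32 for COPE to 2.08 for COPG1. COPZ2 held 11 counts over the 3 vehicle libraries and 2 counts over the 3 at 10 nM, which is too few to compare.

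Cargo receptors showed the highest median of the 4 roles at 10 nM, 0.96, and all 12 rose. KDELR2, a receptor that returns chaperones bearing the KDEL signal to the endoplasmic reticulum, led them (ENSG00000136240.10, chromosome 7, 6445953 to 6484242, minus strand). It went from 151, 148 and 144 CPM to 356, 399.9 and 395 CPM. All 10 nM libraries stood at over 2 times the highest vehicle library, a rise of 1.38 ± 0.058 (edgeR adjusted p = 8.44e-13). It shares 9.42% of its exon length with DAGLB on the same strand. KDELR3, a scarce receptor of the same kind (ENSG00000100196.11, chromosome 22, 38468062 to 38483447, plus strand), gave 2.32, 2.78 and 2.65 CPM in vehicle and 5.46, 5.61 and 6.74 CPM at 10 nM. The rise was 2.29-fold with a log2 SE of 0.12 (edgeR adjusted p = 1.96e-07). KDELR1 rose by 0.38 ± 0.061, the least of the 3. Per kilobase, KDELR1 was the most abundant form in vehicle with 62.7% ± 0.81 of the set and KDELR2 held 36.03% ± 0.68, whereas at 10 nM they held 45.8% ± 3.0 and 52.5% ± 3.0. By CPM alone the order in vehicle was not the same, with 49.1% ± 0.82 for KDELR1 and 50.03% ± 0.74 for KDELR2. At 10 nM these shares were 32.7% ± 2.7 and 66.3% ± 2.7.

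LMAN1 and MCFD2 together form the receptor that exports blood clotting factors and other glycoproteins. LMAN1 (ENSG00000074695.6, chromosome 18, 59327823 to 59359962, minus strand) went from 186, 203.5 and 203 CPM to 458, 477 and 521 CPM. The rise was 1.30 ± 0.058 (edgeR adjusted p = 2.08e-12). MCFD2, its soluble partner, rose by 0.94 ± 0.057. LMAN2, a related lectin of the Golgi, rose by only 0.29 ± 0.055 and lost its call with library totals. LMAN1 went from 29.8% ± 0.86 to 46.1% ± 2.2 of the LMAN1 and LMAN2 pair per kilobase. By CPM alone it was already the larger of the pair in vehicle, with 54.9% ± 1.0, and held 71.0% ± 1.9 at 10 nM.

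The p24 proteins of the TMED family cycle in both kinds of vesicle and load particular cargo, such as lipid-anchored proteins. TMED9 (ENSG00000184840.12, chromosome 5, 177592158 to 177596124, plus strand) gave 107.5, 107 and 96.1 CPM in vehicle and 243, 231 and 254 CPM at 10 nM. All 3 of the latter were over 2 times the highest vehicle library, and the rise was 1.23 ± 0.063 (edgeR adjusted p = 1.43e-11). TMED7 (ENSG00000134970.14, chromosome 5, 115613508 to 115632992, minus strand) gave 72.7, 88.7 and 70.8 CPM against 132, 191 and 159 CPM. Its SE was the largest of the 45, and the rise was 1.05 ± 0.17 (edgeR adjusted p = 2.75e-05). It shares 24.0% of its exon length with the read-through gene TMED7-TICAM2 on the same strand, so the division of reads between the 2 is uncertain. TMED5 rose by 0.97 ± 0.087, TMED10 by 0.81 ± 0.051, TMED2 by 0.80 ± 0.057 and TMED3 by 0.48 ± 0.067. Per kilobase TMED2 and TMED10 were the most abundant of the 6, with 34.5% ± 1.7 and 32.2% ± 0.62 of their sum in vehicle, and TMED9 went from 18.5% ± 0.94 to 22.97% ± 0.98.

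**Figure D3:**
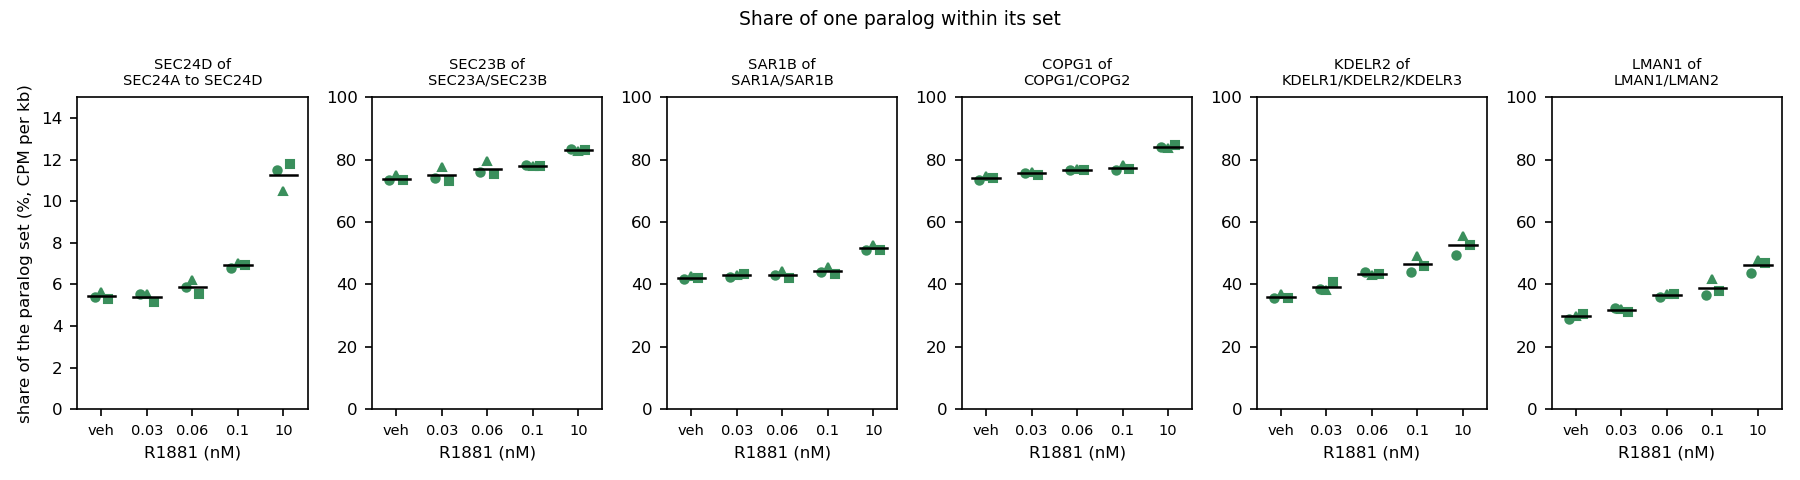
Share of 1 paralog in its set (percent of summed CPM per kilobase of exon; points are libraries, 3 per group) against R1881 dose in nM. SEC24D goes from 5.44% to 11.3% of its set, SEC23B from 74.0% to 83.0%, COPG1 from 74.1% to 84.2%, KDELR2 from 36.03% to 52.5% and LMAN1 from 29.8% to 46.1%, as means of vehicle and 10 nM.

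Among the tethers, SNAREs and RAB1 GTPases all 9 rose at 10 nM, with a median of 0.66, and none reached 2-fold. GOLGA2, a golgin also known as GM130 that catches vesicles at the cis-Golgi, came nearest. It gave 76.8, 79.9 and 75.1 CPM in vehicle, 82.0, 88.8 and 79.3 CPM at 0.1 nM and 156, 151 and 156 CPM at 10 nM. The vehicle and 0.1 nM groups overlapped, and the rise at 10 nM was 0.997 ± 0.056 over vehicle (edgeR adjusted p = 4.50e-11). USO1 (p115), the tether that GOLGA2 binds, rose by 0.73 ± 0.055. RAB1A and RAB1B, which recruit tethers to the vesicle, rose by 0.69 ± 0.045 and 0.52 ± 0.058, and RAB1A made up 12.4% ± 0.46 of the pair per kilobase in vehicle and 13.7% ± 0.98 at 10 nM. Both share exons with genes on the opposite strand, over 22.9% of the exon length of RAB1A and up to 29.35% of that of RAB1B.

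The SNAREs that fuse these vesicles rose by different amounts. BET1 rose by 0.82 ± 0.087, STX5 by 0.66 ± 0.046, SEC22B by 0.51 ± 0.044 and GOSR2 by 0.50 ± 0.057. GOSR1 rose by only 0.18 ± 0.046, from 86.0, 88.3 and 86.6 CPM to 96.9, 99.97 and 98.6 CPM, and with library totals its value was -0.03 with no call.

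At 0.03 nM, where KLK3 was already far above vehicle, no transport gene was called by edgeR, while 8.63% of all genes were. The median difference was 0.00, and 6 of the 45 had an unadjusted p under 0.05, a smaller share than the 21.8% of all genes tested. These were KDELR2 (0.18), LMAN1 (0.17), ARF1 (0.13) and SAR1B (0.12) upward and COPA (-0.15) and SEC31A (-0.14) downward. DESeq2 called 2 of the 45. With the replicate number as a block 4 were called, KDELR2 and LMAN1 higher and COPA and SEC31A lower, and 3 were called without the libraries numbered 3.

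At 0.06 nM 10 transport genes rose (22.2%) and 2 fell (4.44%), against 16.9% up and 14.3% down over all genes. The share that rose was thus near that of all genes, and the share that fell was lower. The 12 calls include 4 cargo receptors, 5 COPII genes and ARF1 upward. KDELR2 gave 197, 189.6 and 195 CPM, above all vehicle libraries, a rise of 0.39 ± 0.057 (edgeR adjusted p = 4.22e-05). LMAN1 gave 251, 265 and 255.5 CPM and rose by 0.38 ± 0.058. PREB went from 55.3, 56.1 and 50.9 CPM to 68.1, 68.2 and 62.5 CPM, a rise of 0.29 ± 0.056. ARF1 went from 446, 459 and 443.5 CPM to 525, 559 and 535 CPM, a rise of 0.26 ± 0.050. These 4 genes were picked among called genes whose groups did not overlap. Of the 45 transport genes tested, 19 had all 0.06 nM libraries above the vehicle libraries, where 21.9% of all genes tested did. TMED9 (0.23), SAR1B (0.23), SEC24D (0.22), SAR1A (0.18), SEC24A (0.16) and TMED2 (0.15) also rose.

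The 2 genes that fell at 0.06 nM were SEC31A, at 144, 144.5 and 145 CPM against 164, 157 and 170.5 CPM in vehicle, and COPA, at 181, 192 and 189 CPM against 202, 212 and 218 CPM. The groups did not overlap in either gene. That was so in 24 of the 45 transport genes, 19 of them upward, and in 7914 of all 18403 genes tested, 4036 of them upward. The log2 differences were -0.18 ± 0.053 for SEC31A and -0.17 ± 0.051 for COPA. Both rose at 10 nM. The number of calls at 0.06 nM varied with the libraries: 7 were called without 0.06 nM replicate 2 and 7 without vehicle replicate 4, where neither fall was called. With the replicate number as a block 19 were called, 15 up and 4 down, 16 were called without the libraries numbered 3, and library totals gave 6 up and 3 down.

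At 0.1 nM 22 rose and 1 fell, where 21.5% of all genes rose and 20.6% fell, and the median was 0.18. Cargo receptors had 8 of 12 called higher, the COPII coat 9 of 13 and COPI with ARF 5 of 11, whereas none of the 9 tethers, SNAREs and RAB1 genes was called in either direction. That last count varied with the fit: BET1 (0.22) was called in 5 of 14 alternative fits, among them the replicate block, RLE, DESeq2 and the fit without vehicle replicate 3, and RAB1B (0.10) in 2, without 0.1 nM replicate 3 and without the libraries numbered 3. The replicate block called 27 up and 2 down, adding SEC16A, COPB2, ARCN1, TMED3 and BET1 upward and COPA downward. KDELR2 gave 209, 239 and 226 CPM and rose by 0.61 ± 0.057 (edgeR adjusted p = 1.64e-07). SEC24D gave 51.1, 51.6 and 52.4 CPM and rose by 0.60 ± 0.075 (edgeR adjusted p = 4.70e-06). LMAN1 gave 275, 309 and 294 CPM and rose by 0.57 ± 0.058, and KDELR3 gave 3.95, 3.33 and 3.41 CPM and rose by 0.46 ± 0.13. SEC31A was the gene that fell, by 0.15 ± 0.053 on the log2 scale (edgeR adjusted p = 0.0268). That call was lost in 7 of 14 alternative fits: without the libraries numbered 3, with no low-count filter, with only the 6 libraries compared, and without vehicle replicate 2, vehicle replicate 4, 0.1 nM replicate 2 or 0.1 nM replicate 3. Without the 5 libraries numbered 3, 27 genes were called, all upward.

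**Figure D4:**
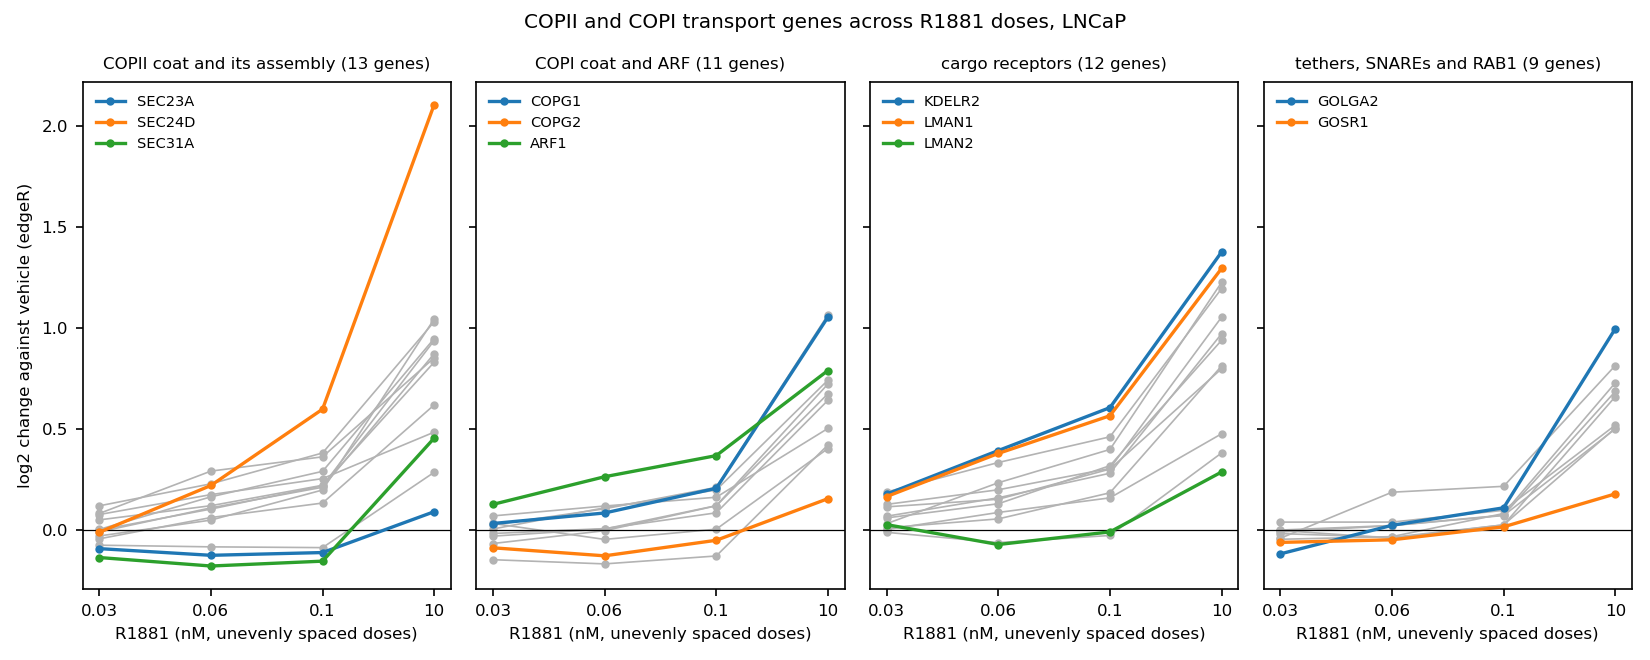
Log2 difference from vehicle (vertical axis, edgeR) at 0.03, 0.06, 0.1 and 10 nM R1881 (horizontal axis, doses not drawn to scale) for the 45 genes tested, 1 panel per role, with named genes in colour. At 0.1 nM the lines lie between -0.15 and 0.61, and at 10 nM they end between 0.09 and 2.11; SEC31A runs below 0 at the 3 low doses.

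Sorted by the lowest dose at which each gene was called higher, 10 came up at 0.06 nM, a further 12 at 0.1 nM (SEC23B, SEC24B, SEC24C, SEC13, COPG1, COPZ1, ARF4, GBF1, KDELR3, MCFD2, TMED5 and TMED10) and a further 22 at 10 nM. The last group holds all 9 tethers, SNAREs and RAB1 genes and 6 of the 8 coatomer genes tested. Over all genes tested the share called higher also grew with dose, from 16.9% at 0.06 nM to 21.5% at 0.1 nM and 29.3% at 10 nM. The step at which a gene was first called varied with the fit: ARCN1 and BET1 were each called at 0.1 nM in 5 of 14 alternative fits and BET1 at 0.06 nM in 2, while the 0.06 nM call was lost in 9 for TMED2 and in 6 each for SEC24A and SEC24D. In 23 of the 45 genes the group mean rose at every one of the 4 dose steps, KDELR2, LMAN1, ARF1 and SAR1B among them. All 45 had their highest mean at 10 nM. For these patterns of group means the share over all genes tested was not taken. In 44 of the 45 genes, all but SEC23A, the 3 libraries at 10 nM lay above all 12 other libraries, which 18.4% of all genes tested did.

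Between 0.1 and 10 nM all 45 genes rose, where 20.6% of all genes rose and 19.5% fell, with a median of 0.60 beside -0.01 over all genes. SEC24D rose most, by 1.51 ± 0.074 (edgeR adjusted p = 4.64e-11), and was the only member that rose at least 2-fold in this step, as 2.86% of all genes did. GOLGA2 rose by 0.89 ± 0.056, ARF4 by 0.85 ± 0.049 and COPG1 by 0.85 ± 0.056. At 0.1 nM ARF4 stood at 191, 202 and 189 CPM and COPG1 at 235, 234 and 246 CPM. The role medians were close to each other in this step, 0.61 for COPII, 0.55 for COPI and ARF, 0.66 for cargo receptors and 0.60 for tethers, SNAREs and RAB1. SEC23A was called here (0.20 ± 0.062, edgeR adjusted p = 0.0138), from 124.0, 125 and 124 CPM at 0.1 nM. That call was lost without 10 nM replicate 4, and GOSR1 (0.16) lost its call without 10 nM replicate 3 and without all 5 libraries numbered 3. With library totals 40 of the 45 were called, all higher, and the calls over all genes were 2164 up and 5994 down in place of 3787 and 3589.

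Per kilobase of exon, vehicle levels of the 45 tested genes spanned from 1.34 CPM for KDELR3 to 186 CPM for RAB1B. ARF1 (137 CPM), TMED2 (79.2 CPM), TMED10 (74.1 CPM) and LMAN2 (68.8 CPM) followed RAB1B in that order. At 10 nM the order at the top was RAB1B (267 CPM), ARF1 (237 CPM), TMED2 (138 CPM), ARF4 (135 CPM) and TMED10 (130.2 CPM). Exon lengths are unions over all transcripts of GENCODE 29, which can be longer than the transcript these cells make.

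Genes that work beside these ones rose less uniformly. Of 73 further genes of transport between the endoplasmic reticulum and the Golgi, 72 were tested, and at 10 nM 43 rose (59.7%) and 6 fell (8.33%), with a median of 0.29, where 29.3% of all genes rose and 28.3% fell. At the 3 lower doses the counts up and down were 3 and 2, 10 and 9, and 16 and 11, and with library totals 2 and 3, 7 and 10, and 12 and 18. Of all genes 5.47% rose and 3.16% fell at 0.03 nM, so the 4.17% and 2.78% of the further genes were near that share. The same holds of 13.9% and 12.5% at 0.06 nM beside 16.9% and 14.3%, and of 22.2% and 15.3% at 0.1 nM beside 21.5% and 20.6%. The golgins and stacking proteins had 8 of 10 higher (median 0.49), SNARE partners and fusion factors 9 of 12 (0.34), exit site and cargo genes 13 of 20 with 2 lower (0.31) and ARF regulators 5 of 8 with 1 lower (0.28). The TRAPP tethering complex had 5 of 14 higher (35.7%, near the 29.3% of all genes) and 2 lower, with a median of 0.03, and the COG tethering complex 3 of 8 higher and 1 lower, with a median of 0.07. With library totals the split over the 72 at 10 nM was 29 up and 21 down.

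The largest rises there were in BCAP29, a chaperone-like membrane protein, ERGIC2, which cycles between the compartments, and GOLGA4, a golgin of the trans-Golgi. BCAP29 was scarce, at 0.915, 0.777 and 0.577 CPM in vehicle and 2.19, 1.81 and 1.99 CPM at 10 nM (1.39 ± 0.26). ERGIC2 went from 45.3, 40.6 and 41.8 CPM to 111, 109 and 114 CPM (1.39 ± 0.051) and GOLGA4 from 104, 102 and 109.8 CPM to 233, 247 and 235.5 CPM (1.18 ± 0.060). The genes named here were picked among called genes whose groups did not overlap, so their separation is no result. The largest falls were small: LMAN2L, a lectin related to LMAN1, by 0.31 ± 0.065, TRAPPC9 by 0.27 ± 0.049 and TRAPPC2L by 0.22 ± 0.064.

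**Figure D5:**
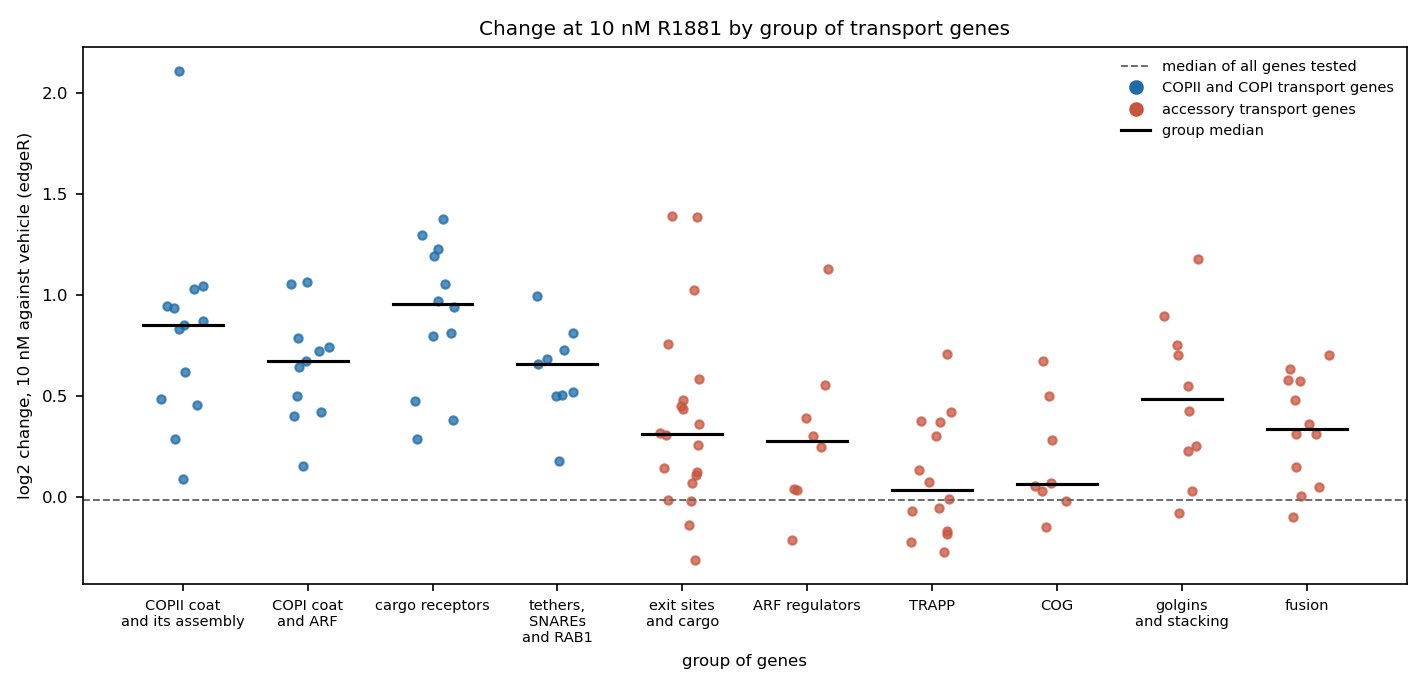
Log2 difference between 10 nM R1881 and vehicle (vertical axis, edgeR) for each gene (points) by group, with the group median as a bar; the first 4 groups are the transport genes by role and the others are the further genes. Medians are 0.85, 0.68, 0.96 and 0.66 for the 4 roles and 0.03 and 0.07 for the TRAPP and COG complexes.

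Because the members moved together, their promoters were searched for short motifs, on both strands of the 300 bases from 250 before to 50 after each RefSeq start site (GRCh38.p14). Windows were given for 40 members, some with several starts, and for 11984 of the genes tested; SEC24D, ARF4, KDELR2, TMED9, USO1 and RAB1A had none in that table. The unfolded protein response element TGACGTGG, a sequence known to be bound by XBP1 and ATF6, was present in 10 of the 40 members (25.0%) and in 1.19% of the 11984 genes. Counted by window, the shares were 20.4% and 0.852%, and 0.953% among windows with at least the members' median GC content of 66.0%. These 10 genes hold 11 matches, as COPB2 has 2. The stretches are printed as 30 bases on the strand of the gene with the motif in capitals, because they show the shared core in differing flanks; CCACGTCA is the same motif read on the other strand.
SEC23A: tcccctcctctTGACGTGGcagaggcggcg
SEC24A: gtgagagtcggTGACGTGGcggcgaggccg
SEC16A: tggccctggtgCCACGTCAgccggactgaa
COPA: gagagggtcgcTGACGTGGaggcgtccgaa
COPB1: cccacccccttCCACGTCAgccaaggactc
COPB2: gctcagcggcaCCACGTCAcggcccttagt
COPB2, nearer the start: tcccggaagttCCACGTCAgtcagtctgac
ARF1: cccggaggcgcTGACGTGGccgccgtcaga
GBF1: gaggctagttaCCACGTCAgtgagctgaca
KDELR3: ggccgccctggCCACGTCAccgcccggcca
STX5: ttacgtgtaggTGACGTGGccgcttccagt

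The stretches lie at chr14:39103221-39103250 (SEC23A, minus strand), chr5:134648595-134648624 (SEC24A, plus), chr9:136484707-136484736 (SEC16A, minus), chr1:160343227-160343256 (COPA, minus) and chr11:14499841-14499870 (COPB1, minus). The others lie at chr3:139389825-139389854 and chr3:139389632-139389661 (COPB2, minus), chr1:228082681-228082710 (ARF1, plus), chr10:102245526-102245555 (GBF1, plus), chr22:38468039-38468068 (KDELR3, plus) and chr11:62832049-62832078 (STX5, minus). By role, 5 of the genes belong to COPI and ARF, 3 to COPII, 1 to cargo receptors and 1 to the SNAREs. The 10 carriers had a median difference of 0.67 at 10 nM, and they include SEC23A, which was not called. The 29 tested members with a window but without the motif had a median of 0.80. Neither median covers SEC24D, KDELR2, TMED9 and ARF4, 4 of the 8 largest rises, which had no window. Among tested genes that are not members, 56 of 133 carriers rose at 10 nM (42.1%). Of the tested genes with a window but without the motif, members included, 34.3% rose. A match is a run of letters and no measurement of binding.

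The shorter core CCACGT, which the longer motif contains, was present in 24 of the 40 members (60.0%) and in 15.4% of tested genes with a window. The 23 tested members with the core had a median difference of 0.72 at 10 nM and the 16 without it 0.67. The androgen response half-site AGAACA was present in 3 of the 40 (7.5%), TFG, TMED3 and SEC22B, and in 12.8% of the tested genes. Neither the endoplasmic reticulum stress element (CCAAT and CCACG with 9 bases between) nor the palindromic androgen response element (AGAACA and TGTTCT with 3 bases between) was found in a member's window.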

How the data were processed

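Stranded messenger RNA libraries (KAPA kit, per the labels' protocols) of LNCaP cells were analysed, 3 for each of 5 groups. The authors deposited raw counts per Ensembl gene. Per the submitters' processing notes, Trimmomatic 0.39, STAR 2.7.8a and DESeq2 1.36.0 were used with GRCh38 (hg38); the counter, the annotation and its strand setting are not given in the sources used here. Of the identifiers, 37732 of 37843 had a row in the symbol table; positions and exon lengths are from GENCODE 29, whose versions equal those of 4 of the 46 members. The table of the VCaP samples has 15 columns that match no label and was not used.

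Under R 4.3.3, edgeR 4.0.16 tested the counts two-sided with its quasi-likelihood F-test, fitted to all 15 libraries after filterByExpr and TMM scaling, with Benjamini-Hochberg adjustment. CPM are counts over total times TMM factor, and SE is the log2 difference over the square root of F. The test was also run on simulated counts that had no replicate effect, with the outcome not reported here. The total count per library, 30666460 to 61199483, sets the precision; a value of 0 allows up to 3 counts, and this covers counting error only. Replicates of a group differed beyond counting noise (chi-square over degrees of freedom 3.54 to 45.3), so none were merged as duplicates. Replicate numbers come from the labels, which do not say what they share; libraries with the same number deviated together (15 correlations of 0.156 to 0.556 between groups that were compared, against -0.447 to 0.196 for 30 pairs with different numbers), so the numbers were taken to pair the samples. Over all pairs of groups the 30 correlations of the same number ran from 0.0805 to 0.556. The fit reported has no term for the replicate number, so its calls, SE and p do not use this pairing. The replicate block, which does use it, is among the alternatives.

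Members, roles, gene lists and motifs were chosen with earlier results of these data known. Genes were named by rule. They were the 8 largest called differences with separate groups at 10 nM against vehicle and the 4 largest in each other comparison. The rule also named 3 further genes in each direction, the paralog sets, and KLK3 and FKBP5. Values per library are printed for many of these but not all. They are also printed for ERN1, CREB3L4 and CREB3L2, the regulators that rose at least 2-fold at 10 nM. SEC23A, SEC31A, COPA, GOSR1 and COPG2 were singled out after their values were seen. Alternatives were RLE size factors, library totals, no low-count filter and a stricter one (CPM of at least 1 in 3 or more libraries, with mean counts of 20 or more), a replicate block, only the libraries compared, DESeq2 1.42.0, no libraries numbered 3, and leaving out each library.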

Additional observations from a re-analysis of the deposited data

How the results depend on the processing

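Transport genes called against vehicle at 0.03 nM, 0 in the fit reported, were 1 with the stricter low-count filter, 4 with the replicate block, 3 without the 5 libraries numbered 3 and 2 with DESeq2; leaving out 1 library gave 0 to 0. At 0.06 nM the 12 became 19 with the replicate block, and 7 to 10 with 1 library left out, lowest without 0.06 nM replicate 2 and without vehicle replicate 4. The cause was not tested. The block moved no other count of transport genes by over 1.5 times. At 0.1 nM the count stayed between 21 and 29, at 10 nM between 40 and 44, and for 10 nM against 0.1 nM between 40 and 45. Of all genes, 1588 were called at 0.03 nM, against 3195 with the replicate block, 1008 with only the 6 libraries compared and 993 to 1312 with 1 library left out (993 without vehicle replicate 4). Of the 72 further genes, the 5 calls at 0.03 nM were 8 with the block, 3 without a low-count filter, with only the 6 libraries or without the libraries numbered 3, and 2 to 5 with 1 library left out; the 19 at 0.06 nM were 11 without a low-count filter and 11 to 19 with 1 library left out. The differences picked by size and those of KLK3 and FKBP5 kept their direction and call in all 504 alternative values. The former were picked among called genes with separate groups, so this does not speak for the whole set. The calls of COPG2, SEC31A and the others given above changed in some fits. The labels do not tell whether libraries are separate cultures, exon overlaps and the unknown strand setting leave some reads unassigned between neighbours, and 3 libraries a group limit how small a difference can be called.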

Other observations

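A list of 12 regulators of the secretory pathway held transcription factors and their activating enzymes. At 10 nM 7 of the 11 tested rose and 1 fell, where 29.3% of all genes rose and 28.3% fell. ERN1, the stress sensor that splices XBP1 mRNA, gave 35.4, 47.0 and 37.8 CPM in vehicle and 165, 180.2 and 185 CPM at 10 nM, a rise of 2.14 ± 0.13 (edgeR adjusted p = 1.14e-10). CREB3L4, a membrane-bound factor abundant in prostate, gave 62.3, 60.4 and 66.4 CPM and 219.9, 218 and 237 CPM, a rise of 1.84 ± 0.079. CREB3L2, a membrane-bound factor known to drive SEC23A in cartilage, gave 55.7, 58.2 and 61.1 CPM and 179, 154.5 and 183 CPM, a rise of 1.56 ± 0.065. These 3 genes were the only ones of the 11 that rose at least 2-fold, so their separation is no further result. All 10 nM libraries were above all vehicle libraries in 7 of the 11, these 3 among them, and in 31.5% of all genes tested. XBP1, a factor that binds the unfolded protein response element, rose by 0.85 ± 0.081, and MBTPS2, a protease that releases membrane-bound factors, by 0.68 ± 0.056.

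CREB3 fell by 0.17 ± 0.068 at 0.1 nM and rose by 0.55 ± 0.067 at 10 nM. ATF6B fell by 0.20 ± 0.064 at 10 nM. MBTPS1 rose by 0.24 ± 0.044 but was not called with library totals (0.04). ATF6 (0.12), ATF4 (0.07) and the stress marker DDIT3 (-0.44) were not called at 10 nM against vehicle, with edgeR adjusted p of 0.0941, 0.664 and 0.0547. With library totals DDIT3 was called lower (-0.65), and ATF6 and ATF4 had the opposite sign (-0.09 and -0.14) with no call.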
